A study of Homo sapiens with 12 samples.

Results

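The genes for cystine import and glutathione synthesis and use were followed in hESCs (human embryonic stem cells) with and without UBQLN1, an adaptor that carries ubiquitinated proteins to the proteasome. The 10 members were chosen by name as the pathway that N-acetyl-L-cysteine (NAC) feeds: SLC7A11, SLC3A2, GCLC, GCLM, GSS, GSR, GPX1, GPX4, CBS and CTH. All 10 were among the 28278 genes of the deposited RNA-seq count table, and all 10 passed the filter on low counts, as did 15916 genes in all. Every library came from the hESC line WA26. The groups were WT cells without treatment at 20% O2, UBQLN1 KO cells without treatment at 20% O2, KO cells cultured at 5% O2, and KO cells treated with NAC, a cell-permeable form of cysteine given as an antioxidant, with 2 libraries each. The KO cells were made with CRISPR-Cas9, and the study describes more than one clone per genotype without naming the clone behind each library, so the error below is the spread between libraries, which may be technical in part. The labels give no dose or duration of NAC and no oxygen level for the NAC samples. The paper names DMSO as the control for NAC, while the titles of the untreated KO libraries name oxygen only. Any difference in vehicle or passage number therefore cannot be told apart from NAC here. The paper's scheme shows NAC and low oxygen over repeated passages before RNA-seq, while its text gives a day-long exposure for the RNA-seq at low oxygen, so the treated groups may differ in exposure time. Libraries of treated WT cells were not analysed here, which leaves the effect of either treatment on these genes in WT cells untested.

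The libraries held 31236968 to 41639350 counts. UBQLN1 itself was at 221 and 197 CPM (counts per 1e+06 counts of the library, with its size scaled by TMM) in WT and at 42.3 to 62.4 CPM in the 6 KO libraries, below both WT libraries in each. All 8 markers of human ES cells were present in every library, with a summed level of 4329 to 5711 CPM and lowest in both NAC libraries. Against untreated KO cells, 3 of these markers were called lower with NAC (DNMT3B at -0.97, SALL4 at -0.51 and NANOG at -0.31 on the log2 scale) and 2 higher (ZFP42 at 0.61 and TDGF1 at 0.26). One library stood apart: the first KO library with NAC held DCN at 47.2 CPM, COL3A1 at 29.1 CPM and LUM at 3.86 CPM, genes of mesenchymal cells, of which DCN and LUM were at 0 in the other 7. Its summed level of the 10 mesenchymal markers was 983 CPM against 549 to 651 CPM in the other libraries, and none of these markers was under 1 CPM in it against 4 in each of the others. The neural ectoderm markers summed to 139 and 155 CPM with NAC, 230 and 304 CPM at 5% O2, 444 and 471 CPM in untreated KO and 279 and 243 CPM in WT, and the 8 mesoderm and endoderm markers to 2.85 to 9.91 CPM over all libraries, with MIXL1 called lower with NAC (-1.59, adjusted p = 0.0018). The part of these markers in the results with NAC was not tested. Values without that library are given beside each member, and for the other lists only in part. In bulk RNA, fewer cells of a type and less RNA per cell cannot be told apart.

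Glutathione is the main small thiol of the cell. Cystine enters through the antiporter xCT, made of the transporter subunit SLC7A11 and the heavy chain SLC3A2, and is reduced to cysteine, which can also be made from homocysteine by CBS and CTH in the transsulfuration pathway. Glutamate-cysteine ligase, with the catalytic subunit GCLC and the modifier subunit GCLM, joins cysteine to glutamate in the step that limits the rate, and GSS adds glycine. GPX1 and GPX4 spend glutathione on hydrogen peroxide and on lipid peroxides in membranes, and GSR reduces the oxidised form again with NADPH. NAC can be turned into cysteine inside the cell and so enters this route downstream of cystine import.

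The members spanned a wide range of levels. Levels between genes are compared per kilobase of the MANE Select transcript of GENCODE v44, as medians of the 8 libraries. GPX1 was highest at 483 CPM per kilobase, followed by SLC3A2 at 304 and GPX4 at 295. GSR was at 44.3, GSS at 24, GCLC at 13.6, CTH at 10.2, GCLM at 6.06, SLC7A11 at 3.28 and CBS at 0.24 CPM per kilobase. The libraries of SLC3A2 ranged from 273 to 356 and those of GPX4 from 267 to 367 CPM per kilobase, so the order of these 2 genes was not set apart from their spread. The same held for GCLC, from 10 to 15, and CTH, from 8.25 to 11.7 CPM per kilobase. No other pair of neighbours in the order overlapped. Without division by length, SLC3A2 stood first and CTH ninth in the order. GPX1, SLC3A2 and GPX4 were thus above every other member in every library, while the transporter subunit of xCT was ninth per kilobase. The place of CBS is not a measure of its mRNA, since most of its reads can be left out by the counting, as given with the gene below, and GPX1 can be understated for the same reason. Apart from CBS, the highest library of a member was 1.28 to 1.68 times its lowest.

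**Figure D1:**
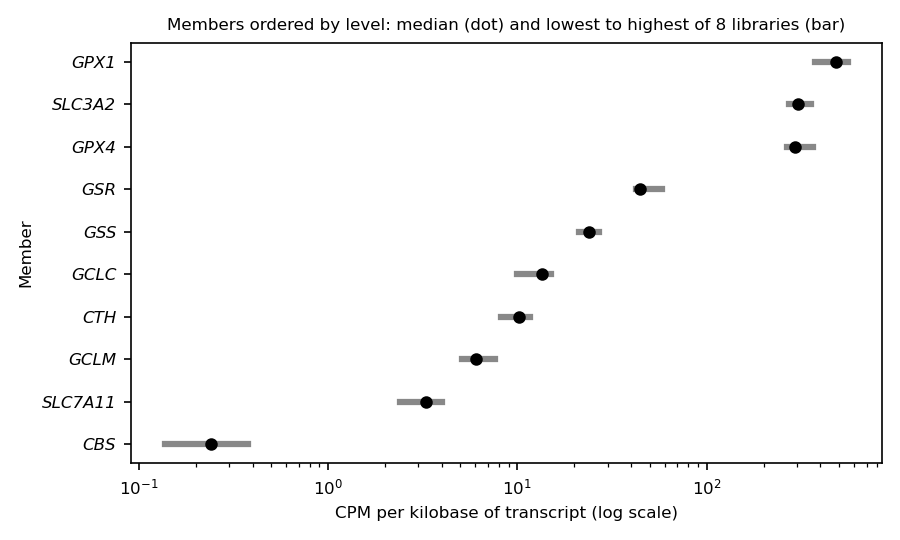
Level of each member as CPM per kilobase of transcript on a log axis, with the median of 8 libraries as a dot and the lowest to highest library as a bar. GPX1, SLC3A2 and GPX4 are the highest, with medians of 483, 304 and 295, and CBS, whose reads are partly left out because of a second copy of the gene, is at 0.24, and the bars of SLC3A2 and GPX4 and those of GCLC and CTH overlap.

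SLC7A11, on chromosome 4 (hg38, 138164097 to 138242349), was at 33.0 and 28.3 CPM in WT and at 38.6 and 32.0 CPM in KO. It was at 31.3 and 26.6 CPM at 5% O2 and at 23.0 and 36.1 CPM with NAC. The NAC libraries held the lowest and the second highest value of all 8, and only at 5% O2 did both libraries lie outside the range of untreated KO cells, below it. No difference passed the test, with log2 fold changes of 0.20 for KO minus WT (SE 0.19, adjusted p = 0.613), -0.29 at 5% O2 (SE 0.19, adjusted p = 0.379) and -0.26 with NAC (SE 0.19, adjusted p = 0.29). Without the first NAC library the last of these was 0.03 (adjusted p = 0.904), and without the second it was -0.62 (adjusted p = 0.00474).

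SLC3A2, on chromosome 11 (62880896 to 62888860), which also pairs with other amino acid transporters, was at 544 and 632 CPM in WT and at 514 and 562 CPM in KO. It was at 584 and 579 CPM at 5% O2 and at 568 and 671 CPM with NAC. Both treated groups lay above both untreated KO libraries, by 0.11 at 5% O2 (SE 0.10, adjusted p = 0.541) and by 0.20 with NAC (SE 0.10, adjusted p = 0.129) on the log2 scale, and neither passed the test. Without the first NAC library the difference with NAC was 0.32 (adjusted p = 0.0246). SLC3A2 was 68.1 and 89.9 times SLC7A11 per kilobase in untreated KO cells, 95.6 and 111 times at 5% O2, and 126 and 95.2 times with NAC. The ratios of both treated groups lay above those of untreated KO cells, while WT, at 84.3 and 114, overlapped with them. In an exact permutation test, 2 libraries against 2 cannot give a p below 0.333, which both treated groups reached.

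GCLC, on chromosome 6 (53497341 to 53545101), was the member that fell with NAC. It was at 56.7 and 49.7 CPM in WT, at 54.3 and 50.9 CPM in untreated KO cells and at 54.6 and 51.9 CPM at 5% O2, 3 groups that overlapped. With NAC it was at 38.0 and 44.7 CPM, below all 6 other libraries. The log2 fold change with NAC was -0.35 (SE 0.11, adjusted p = 0.0222), a fall to 0.785 of the untreated level. The mean of the untreated KO libraries was 52.6 ± 2.42 CPM (SD, n = 2) and that of the NAC libraries 41.3 ± 4.77 CPM (SD, n = 2). Without the first NAC library, which had the lower value, the log2 fold change was -0.24 (adjusted p = 0.126). Between KO and WT cells it was -0.02 (SE 0.11, adjusted p = 0.962), with a 95% interval from -0.26 to 0.22.

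GCLM, on chromosome 1 (93885199 to 93909430), passed no test. It was at 29.9 and 25.1 CPM in WT and at 28.3 and 31.9 CPM in KO. It was at 30.3 and 29.2 CPM at 5% O2 and at 27.5 and 37.3 CPM with NAC. All groups overlapped with untreated KO cells, and the log2 fold change with NAC was 0.10 (SE 0.15, adjusted p = 0.612), and 0.31 (adjusted p = 0.0899) without the first NAC library. The ratio of GCLC to GCLM per kilobase was 2.44 and 2.56 in WT, 2.48 and 2.06 in untreated KO cells, 2.32 and 2.29 at 5% O2, and 1.78 and 1.54 with NAC. Both NAC libraries thus held less mRNA of the catalytic subunit relative to that of the modifier subunit than the other 6. The mean ratio was 2.27 ± 0.298 (SD, n = 2) in untreated KO cells and 1.66 ± 0.167 (SD, n = 2) with NAC, a log2 difference of -0.45 with an exact permutation p of 0.333, the smallest that 2 against 2 can give. A second fit took out of each library a smooth dependence of the counts on the length and the GC content of the transcripts, called the length-GC correction below, and there the log2 difference was -0.15. The GCLM transcript has 37.3% GC and that of GCLC 44.2%.

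The promoters of both subunits are printed because the ligase genes are known targets of NRF2, which binds the antioxidant response element with small MAF proteins. Each is the 250 bases before the start of the gene (RefSeq, GRCh38.p14), read 5′ to 3′ on the strand of the gene, from chr1:93909431-93909680 for GCLM and chr6:53545102-53545351 for GCLC, both on the minus strand. Capitals mark a match to the core of the element, TGACNNNGC, searched on both strands with no overlap with the other motif searched.
GCLM: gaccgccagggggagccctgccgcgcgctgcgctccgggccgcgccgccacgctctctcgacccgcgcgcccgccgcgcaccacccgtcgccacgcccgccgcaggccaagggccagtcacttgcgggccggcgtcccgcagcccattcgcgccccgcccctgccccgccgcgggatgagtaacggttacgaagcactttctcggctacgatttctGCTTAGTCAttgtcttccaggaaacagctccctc
GCLC: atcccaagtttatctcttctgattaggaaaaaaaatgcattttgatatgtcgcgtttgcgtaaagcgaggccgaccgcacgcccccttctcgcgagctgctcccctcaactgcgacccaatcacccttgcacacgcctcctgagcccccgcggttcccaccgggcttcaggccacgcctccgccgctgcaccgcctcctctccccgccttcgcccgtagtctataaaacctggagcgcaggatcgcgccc
The GCLM promoter held 1 match, from 34 bases before the start and on the strand opposite to the gene, and the GCLC promoter held no such letters. In windows of 300 bases, from 250 before to 50 after a start, 13.3% of 35116 promoters held the core. Of the members, 7 had at least 1 of 13 promoters in the table. Besides GCLM, 1 of 3 promoters of SLC3A2 and 1 of 3 of CBS held it, 37 and 83 bases before the start. The core TGATGNAA of the amino acid response element, which ATF4 can bind, was found in 3.62% of promoters and, among the members, in that same SLC3A2 promoter. These are descriptions of letters in a window and not sites of binding.

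GSS, on chromosome 20 (34928432 to 34955806), was at 50.3 and 49.5 CPM in WT and at 43.0 and 42 CPM in KO. It was at 44.4 and 52.0 CPM at 5% O2 and at 47.1 and 40.6 CPM with NAC. Both untreated KO libraries lay below both WT libraries, by 0.23 on the log2 scale, and this did not pass the test (SE 0.11, adjusted p = 0.301). With NAC the groups overlapped and the log2 fold change was 0.05 (SE 0.11, adjusted p = 0.764), and -0.07 (adjusted p = 0.697) without the first NAC library.

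GSR, on chromosome 8 (30678066 to 30727846), was at 128 and 134 CPM in WT, at 129 CPM in both KO libraries and at 138 and 135 CPM at 5% O2. With NAC it rose to 178 and 143 CPM, above the other 6 libraries, a log2 fold change of 0.31 (SE 0.10, adjusted p = 0.0278). The higher value was that of the library with mesenchymal markers, and without it the log2 fold change was 0.14 (adjusted p = 0.24). Between the genotypes it was -0.02 (SE 0.10, adjusted p = 0.945). The ratio of GSR to GSS per kilobase was 1.61 and 1.70 in WT, 1.90 and 1.93 in untreated KO cells, 1.95 and 1.64 at 5% O2, and 2.37 and 2.21 with NAC. Both NAC libraries were the highest of the 8, a log2 difference of 0.26 from untreated KO cells, which was 0.09 after the length-GC correction.

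GPX1, on chromosome 3 (49357176 to 49358353), was at 373 and 502 CPM in WT and at 336 and 378 CPM in untreated KO cells. It was at 454 and 415 CPM at 5% O2 and at 456 and 475 CPM with NAC. Both treated groups lay above untreated KO cells, and the rise with NAC passed the test at a log2 fold change of 0.38 (SE 0.12, adjusted p = 0.0239). At 5% O2 it was 0.28 (SE 0.12, adjusted p = 0.18). For KO minus WT, where one WT library fell between the KO libraries and the other far above them, it was -0.29 (SE 0.12, adjusted p = 0.244). Without either NAC library in turn the log2 fold change with NAC was 0.41 without the first and 0.35 without the second. Over 15 alternative fits it ran from 0.30 to 0.51, and GPX1 was called in 14 of them.

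GPX4, on chromosome 19 (1103994 to 1106779), was at 228 and 275 CPM in WT, at 241 and 234 CPM in KO and at 254 and 248 CPM at 5% O2. With NAC it was at 312 and 279 CPM, above the other 6 libraries, and its log2 fold change was 0.32 (SE 0.10, adjusted p = 0.0224). Without the first NAC library it was 0.23 (adjusted p = 0.106). For KO minus WT it was -0.08 (SE 0.10, adjusted p = 0.718). The ratio of GPX1 to GPX4 per kilobase ran from 1.32 to 1.73 over the 8 libraries and was 1.32 and 1.53 in untreated KO cells against 1.38 and 1.61 with NAC, which overlapped.

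GPX1 and GPX4 are selenoproteins: a TGA inside the coding sequence, a stop elsewhere, is read as selenocysteine in the active site. The stretch of 45 coding bases around that codon is shown for both, with the codon in capitals, from chr3:49358111-49358155 on the minus strand and chr19:1105382-1105426 on the plus strand of hg38. It is codon 49 of GPX1 and codon 73 of GPX4, counted from 1 at the start codon of the MANE Select transcript. Below them stands the same stretch of GPX1P1, a processed pseudogene of GPX1, from chrX:13379179-13379223 on the minus strand, with capitals at the 2 bases where it differs from GPX1.
GPX1: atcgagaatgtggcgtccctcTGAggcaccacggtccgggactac
GPX4: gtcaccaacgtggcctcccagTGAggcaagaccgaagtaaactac
GPX1P1: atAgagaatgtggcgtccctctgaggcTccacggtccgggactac
Over the 863 bases that could be aligned, the pseudogene was identical to the GPX1 transcript at 97.7%. Of the 31-base words of the GPX1 transcript, 53% stood elsewhere on the chromosomes, and 47.9% stood at that place on the X chromosome. None of the GPX4 words stood elsewhere. With counting at default settings, reads that match several places are left out, so the level of GPX1 is uncertain and can be understated.

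CTH, on chromosome 1 (70411268 to 70439851), which releases cysteine from cystathionine, was at 24.3 and 23.7 CPM in WT and at 18.0 and 19.1 CPM in untreated KO cells. At 5% O2 it was at 19.8 and 17.2 CPM, and with NAC at 24.5 and 22.9 CPM. The 4 KO libraries without NAC all lay below both WT libraries, and the NAC libraries lay on either side of the WT libraries. For KO minus WT the log2 fold change was -0.37 (SE 0.12, 95% interval -0.64 to -0.11, unadjusted p = 0.0104), and it did not pass the test over all genes (adjusted p = 0.141). With NAC it was 0.35 (SE 0.12, adjusted p = 0.0341), or 0.30 (adjusted p = 0.1) without the first NAC library, and against untreated WT cells the KO cells with NAC stood at -0.02 (SE 0.12, adjusted p = 0.919). The first 2 of these comparisons share the untreated KO libraries and are not independent. At 5% O2, which shares them too, the log2 fold change was -0.00 (SE 0.12, adjusted p = 0.997). After the length-GC correction the rise with NAC was lost, at -0.12 (adjusted p = 0.454), and KO cells with NAC stood below WT cells, at -0.39 (adjusted p = 0.0258).

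CBS, on chromosome 21 (43053191 to 43075835), which makes cystathionine, had few counts, with 12 and 21 counts in WT, 28 and 39 in KO, 14 and 13 at 5% O2 and 25 and 28 with NAC. Both KO libraries lay above both WT libraries (log2 fold change 0.91, SE 0.53, adjusted p = 0.402) and both 5% O2 libraries lay below untreated KO cells (-1.19, SE 0.54, adjusted p = 0.197). With NAC it was -0.11 (SE 0.51, adjusted p = 0.881), and 0.13 (adjusted p = 0.895) without the first NAC library. These values cannot be read as the level of the gene, because hg38 holds a second copy of it. Of the 31-base words of its transcript, 80.9% stood also near the other end of chromosome 21, and 16 of its 17 exons had an exact copy there. The first 60 coding bases are shown from chr21:43072134-43072193 and from the copy at chr21:6463812-6463871, both on the minus strand, and they do not differ at any base.
CBS: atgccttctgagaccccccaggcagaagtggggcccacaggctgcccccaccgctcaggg
copy: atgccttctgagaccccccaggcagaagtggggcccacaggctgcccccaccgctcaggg
The copy has its own row in the table, CBSL, with 1 to 8 counts per library. Reads that match both copies are left out by counting at default settings, so a low count of CBS does not show a low level of its mRNA.

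**Figure D2:**
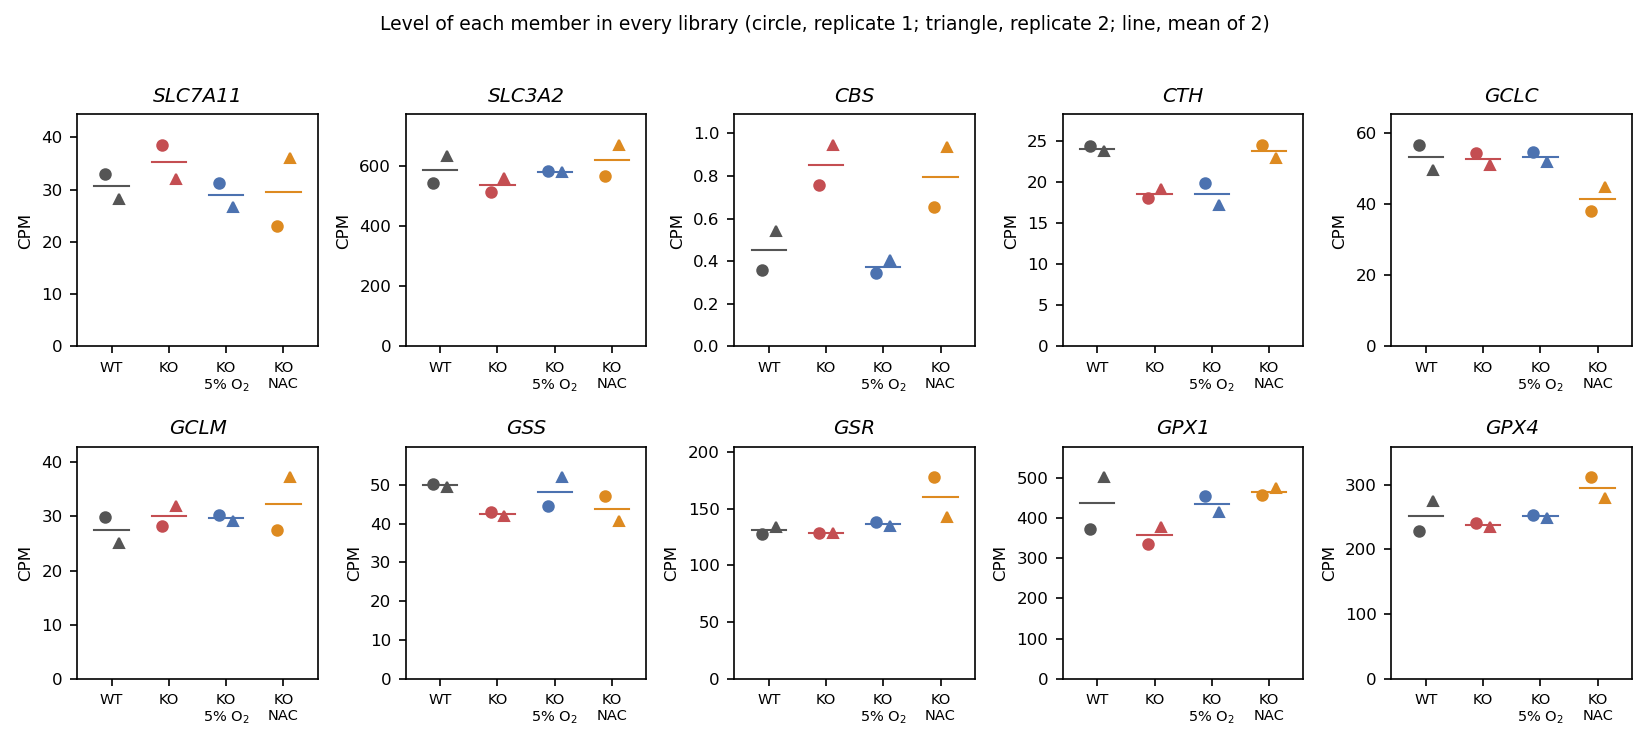
CPM of each member in every library, by group on the x axis, with circles for replicate 1, triangles for replicate 2 and a line at the mean of 2. GCLC lies below all other libraries with NAC, GSR and GPX4 lie above them, and CTH lies below both WT libraries in untreated KO cells and at 5% O2.

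In KO against WT at 20% O2, which asks what the loss of UBQLN1 does to the pathway, none of the 10 members passed an adjusted p of 0.05 in edgeR's quasi-likelihood test. Among all tested genes, 1.34% were called higher and 0.622% lower. By an unadjusted p under 0.05 there were 2, GPX1 and CTH, both lower, and the share of all genes at that level was not counted. By DESeq2 none was called, against 6.43% of the genes it tested. The fold criterion of the study, a log2 fold change beyond 1 in either direction together with an unadjusted p under 0.05, was met by none of the members and by 2.57% of all genes. Both KO libraries lay above both WT libraries in 1 member, CBS, against 27.7% of all genes, and below them in 2, GSS and CTH, against 27.0%. The median log2 fold change of the 10 members was -0.05, and that of all genes was -0.00. The 95% intervals ran from -0.26 to 0.22 for GCLC and from -0.25 to 0.20 for GSR, so changes within these bounds are not excluded. Larger differences also went uncalled, with CTH at -0.37 (adjusted p = 0.141) and GPX1 at -0.29 (adjusted p = 0.244).

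In NAC against untreated KO, which asks how the pathway stands when its substrate is supplied, 4 of the 10 members rose, GSR, GPX1, GPX4 and CTH, and 1 fell, GCLC. Among all genes, 23.8% were called higher and 20.8% lower, so 5 of 10 is close to the share that this comparison gives over the whole table. No change was over 1 on the log2 scale, which with an unadjusted p under 0.05 was met by 9.02% of all genes. Both NAC libraries lay above both untreated KO libraries in 5 members, against 36.2% of genes, and below them in 1, against 34.0%. The members had a median of 0.15 and all genes one of 0.02 on the log2 scale. Without the first NAC library these medians were 0.19 and 0.01. GCLM, GSS, CBS and both xCT subunits were not called.

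The changes with NAC went along with transcript GC content, with a rank correlation over 15283 genes of -0.49 for GC content and -0.25 for transcript length, a description over genes and not over samples. The same correlations were -0.33 and -0.24 at 5% O2 and 0.14 and 0.22 in KO against WT. After the length-GC correction GCLC stood at -0.48 (adjusted p = 0.00667), GPX1 at 0.48 (adjusted p = 0.00359) and GPX4 at 0.41 (adjusted p = 0.00717). SLC3A2 was then called higher at 0.33 (adjusted p = 0.0171). GSR was no longer called at 0.21 (adjusted p = 0.112). SLC7A11 stood at -0.49 (adjusted p = 0.0536) and GCLM at -0.33 (adjusted p = 0.122). In this fit 3 members were higher, against 15.1% of all genes, and 1 was lower, against 10.6%. GCLC, GPX1 and GPX4 were thus called with and without the correction. With the first NAC library left out and the correction made in the same fit, a setting chosen after seeing the data, GCLC stood at -0.35 (adjusted p = 0.0181), GPX1 at 0.51 (adjusted p = 0.00249), GPX4 at 0.32 (adjusted p = 0.0139) and SLC3A2 at 0.45 (adjusted p = 0.00104). The calls without the correction depended on the libraries used. Without the first NAC library and without the correction, GCLC stood at -0.24, GPX1 at 0.41, GPX4 at 0.23 and SLC3A2 at 0.32 on the log2 scale. GSR stood there at 0.14 and CTH at 0.30. In the fit of all libraries GCLC stood at -0.35, GPX4 at 0.32, GSR at 0.31 and CTH at 0.35, all larger in size. GPX1 at 0.38 and SLC3A2 at 0.20 were smaller in that fit. A fit with 1 library in a group is also a weaker test, and what a lost call owed to either was not tested.

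**Figure D3:**
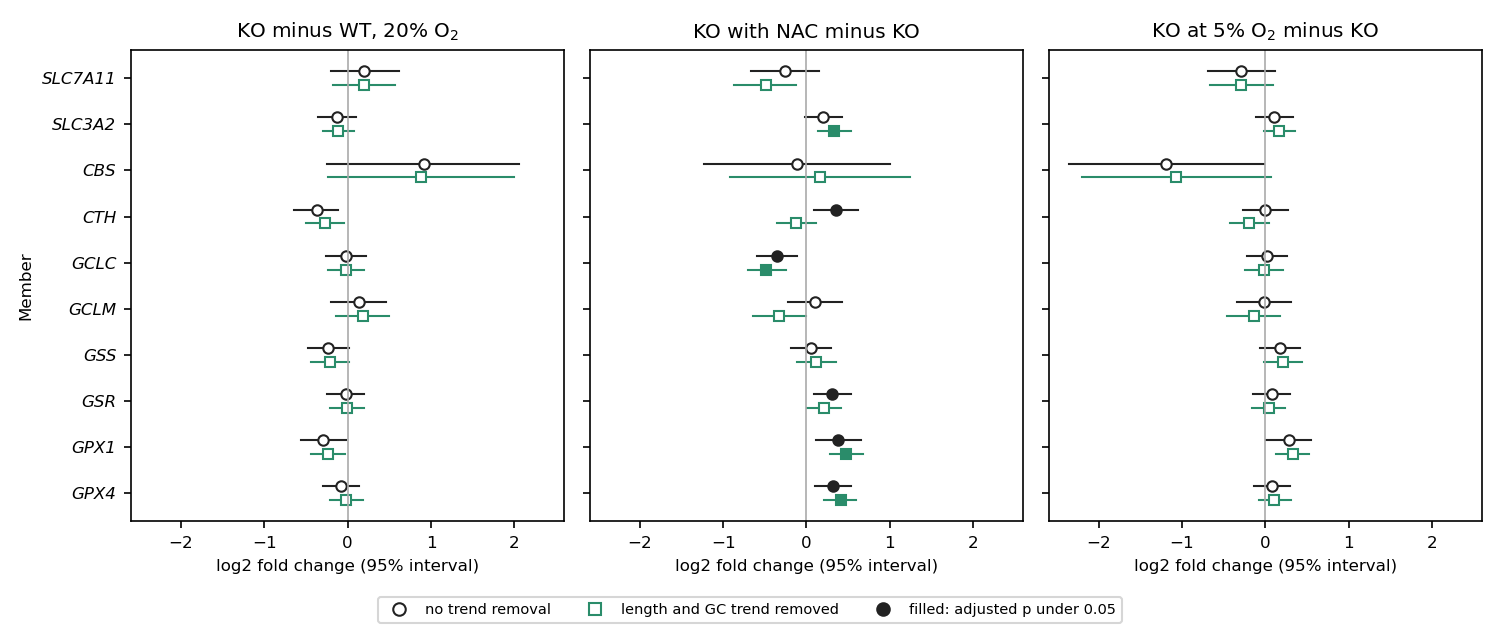
Log2 fold change of each member (x axis) in 3 comparisons, with 95% intervals; circles are the fit without and squares the fit with the length-GC correction, and filled marks have an adjusted p under 0.05. With NAC, GCLC is filled on the lower side and GPX1 and GPX4 on the higher side in both fits, whereas CTH changes side, and no mark is filled in the other panels.

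At 5% against 20% O2 in KO cells, a second way to lower oxidative load, none of the members passed the adjusted p, against 3.68% of all genes higher and 4.13% lower. By an unadjusted p under 0.05 there were 2, GPX1, which was higher, and CBS, which was lower. The share of all genes at that level was not counted. By DESeq2 none of the members was called, against 17.7% of the genes it tested. CBS was the 1 member that met the fold criterion, met by 2.02% of all genes, on counts of 13 to 39. Both libraries at 5% O2 lay above both untreated KO libraries in 5 members, SLC3A2, GSS, GSR, GPX1 and GPX4, against 30.7% of all genes, and below them in 2, SLC7A11 and CBS, against 30.3%. For these members the log2 fold change ran from 0.08 to 0.28 on the higher side. The median of the 10 was 0.05, with -0.00 over all genes.

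The treatments were also set against each other and against WT. In NAC against 5% O2 in KO cells, GCLC was lower at -0.37 (SE 0.11, adjusted p = 0.0274) and CTH higher at 0.35 (SE 0.12, adjusted p = 0.0484), with 13.6% of all genes lower and 15.5% higher. In KO cells with NAC against untreated WT cells, GCLC was lower at -0.37 (SE 0.11, adjusted p = 0.0219) and GSR higher at 0.29 (SE 0.10, adjusted p = 0.0435), with 17.6% of all genes lower and 20.6% higher. All of these share the NAC libraries with the comparison above. Without the first NAC library, none of the members was called in the former and only GCLM in the latter. After the length-GC correction GCLC and GPX4 were called in the former, and GCLC, GPX4 and CTH in the latter.

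**Figure D4:**
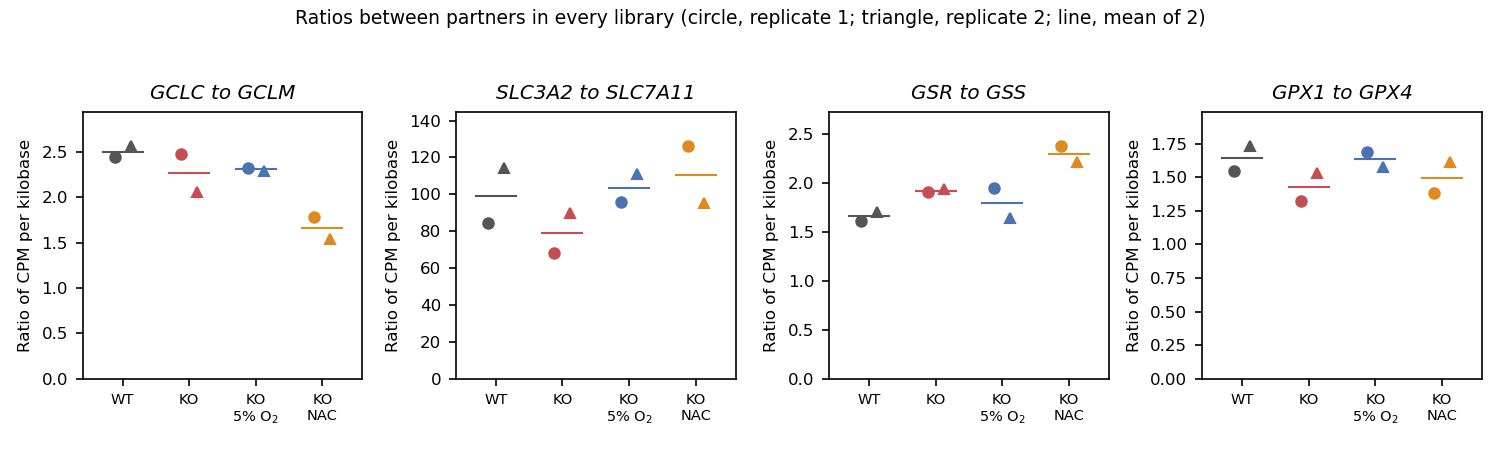
Ratio of CPM per kilobase between partners in every library, with circles for replicate 1, triangles for replicate 2 and a line at the mean of 2. GCLC to GCLM is lowest in both NAC libraries, at 1.78 and 1.54, and GSR to GSS is highest there, at 2.37 and 2.21, and both differences are smaller after the length-GC correction.

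The rest of the pathway was taken from lists of 116 genes in 10 groups, of which 101 were tested. In KO against WT, none of these was called by adjusted p, and their median was -0.10 on the log2 scale. At 5% O2, 5 were higher and 2 lower, or 6.93%, against 3.68% higher and 4.13% lower of all genes. The transferase MGST1 (0.46), the glyoxalase GLO1 (0.49), the NADPH-making enzyme IDH1 (0.38), MAT2B (0.45) of the methionine cycle and SEPHS1 (0.29), which makes the selenium donor of selenoproteins, were higher on the log2 scale, and MAFG (-0.51) was among the lower ones. None of these 7 was called after the correction.

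With NAC, 37 of the 101 were higher and 13 lower, or 49.5%, against 23.8% higher and 20.8% lower of all genes. After the correction 24 were higher and 9 lower, against 15.1% and 10.6% of all genes. Without the first NAC library, a setting added after seeing the data, 33 of 102 were higher and 13 lower, or 45.1%, against 40.9% of all genes in either direction. The counts by group below stand against these shares. Of 16 glutathione transferases tested, which attach glutathione to other molecules, 10 were higher and none lower, with a median log2 fold change of 0.52, and 6 were higher after the correction. The median of the transferases was 0.27 after the correction, and 0.47 over 17 genes without the first NAC library and without the correction. GSTO1 was at 133 and 143 CPM with NAC and at 59.8 and 65.7 CPM in untreated KO cells, a log2 fold change of 1.14 (SE 0.13, adjusted p = 3.9e-05), and 0.79 after the correction. MGST2 stood at 1.19 and GSTM3 at 0.96, and at 0.64 and 0.95 after the correction. Of 6 glutaredoxins and glyoxalases, 4 were higher, among them GLRX3 (1.07), GLO1 (0.99) and GLRX2 (0.95), and each of these 3 was at 0.34 or less after the correction. GLRX3 (0.34) and GLO1 (0.30) were still called there, and of the 6 genes 3 were then higher and 1 lower. Of 4 other peroxidases, 2 were higher, GPX8 (0.61) and GPX7 (0.50), and none was called after the correction.

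Upstream of glutathione, AHCY, which makes homocysteine, was at 1191 and 992 CPM with NAC and at 617 and 645 CPM in untreated KO cells, a log2 fold change of 0.79 (SE 0.11, adjusted p = 0.000135) and 0.90 after the correction. Of 11 genes of the methionine cycle, 2 were higher and 3 lower. MAT2B (1.06) was also higher, at 0.34 after the correction. Of 9 carriers of amino acids tested, 2 were higher and 3 lower. SLC7A5, a carrier of large neutral amino acids that pairs with SLC3A2, was at 250 and 264 CPM with NAC and at 597 and 642 CPM in untreated KO cells, a log2 fold change of -1.27 (SE 0.09, adjusted p = 1.3e-05), and -0.64 after the correction. SLC6A9 (-0.55) was lower and SLC1A1 (0.90), which can carry cysteine, was higher, at 21.1 CPM in the first NAC library and 9.45 CPM in the second. Neither was called after the correction, at -0.12 and 0.74, and SLC1A1 was at 0.20 (adjusted p = 0.409) without the first NAC library. Of 10 genes for other uses of cysteine and of sulfide, 3 were higher, ETHE1 (0.66), GOT1 (0.52) and CDO1 (0.38), and none lower. CDO1 was at -0.11 after the correction and no longer called, and it was not called without the first NAC library (0.38, adjusted p = 0.0503).

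Of 15 genes of NADPH supply, 6 were higher and 2 lower. IDH1 rose by 0.72, and stood at 0.23 after the correction. ALDH1L2, a mitochondrial folate enzyme, was lower at -1.01, and at -0.98 after the correction. Of the 15 genes, 5 were then higher and 2 lower. Of 13 genes of breakdown and export, 5 were higher and 1 lower. CHAC2, which cleaves glutathione, stood at 1.12, and at 0.09 after the correction, ABCC4 at 0.49 and OPLAH at -0.54. OPLAH was at 0.19 after the correction and no longer called. Of 7 genes for making selenoproteins, SEPSECS (0.61) and TRNAU1AP (0.57) were higher and EEFSEC (-0.46) lower, and none was called after the correction. SEPSECS was not called without the first NAC library (0.52, adjusted p = 0.0756). Among 10 regulators, 1 was higher and 3 lower: MAFK (-1.01) and MAFG (-0.81), small MAF partners of NRF2, and NFE2L1 (-0.32). After the correction these stood at -0.45, -0.26 and 0.13, and MAFK alone of these 3 was called. NFE2L2, the gene of NRF2, was also called lower after the correction, at -0.46 (adjusted p = 0.0134), and was at -0.00 (adjusted p = 0.983) without it. NFE2L2 was named after its values were seen.

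**Figure D5:**
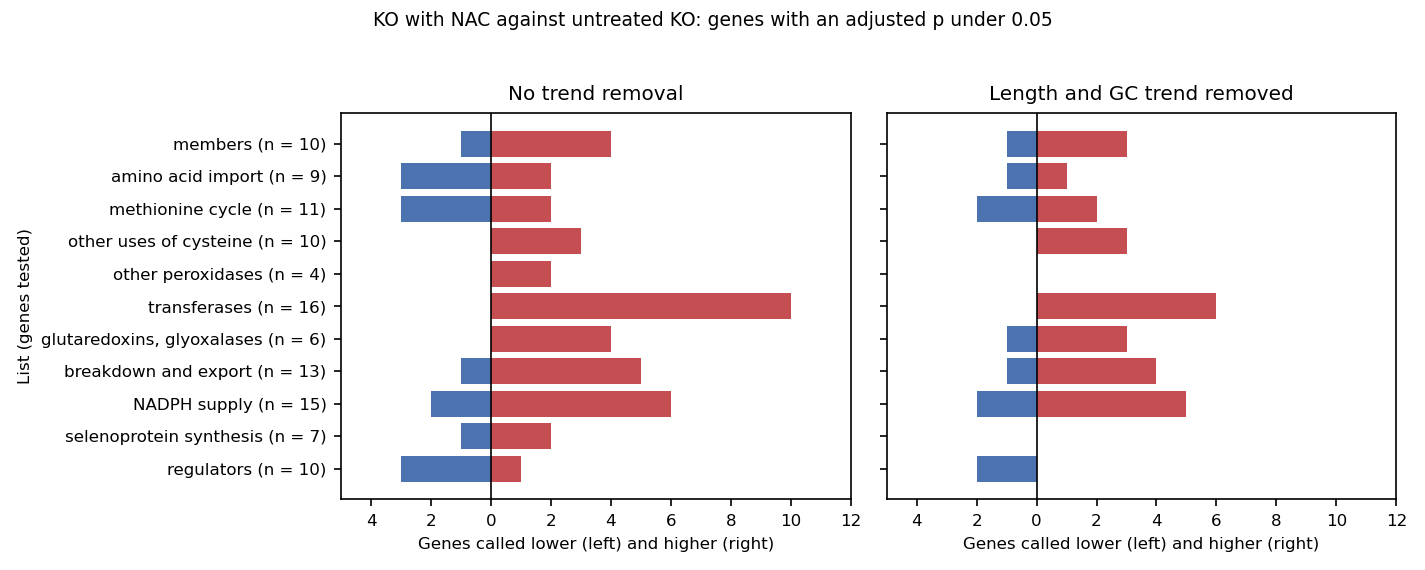
Number of genes called higher (right) and lower (left) by adjusted p in KO cells with NAC against untreated KO cells, for the members and 10 lists of the pathway, without (left panel) and with (right panel) the length-GC correction. The transferases have 10 genes higher and 0 lower without and 6 higher and 0 lower with it, and the calls of the other peroxidases and selenoprotein synthesis drop to 0.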

How the data were processed

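RNA-seq libraries of WA26 hESCs were used as raw counts per gene. Per the study's methods, trimmed reads were aligned by the authors with HISAT2 on hg38, and the deposited counts come from featureCounts at default settings, which ignores strand and leaves out reads of several places or overlapping genes; the annotation is not given in the sources used here. The submitters' processing notes also name FastQC 0.11.9. The labels describe 12 samples, of which 8 libraries were analysed here.

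Here edgeR 4.0.16 (R 4.3.3) was used for the filter on low counts (filterByExpr, minimum count 10), TMM scaling and the quasi-likelihood test, in 1 fit of 4 groups of 2 libraries with 4 residual degrees of freedom and a biological coefficient of variation of 13.7%. Benjamini-Hochberg adjustment covered 15916 genes, and SE is the log2 fold change divided by the root of the F statistic. The libraries of a group differed beyond sampling noise (chi-square over degrees of freedom 9.8 to 32.3). Alternatives were DESeq2 1.42.0, other scalings and filters, blocks, fewer libraries, and the length-GC correction, a smooth term in mgcv 1.9.3 used as an offset (96% of genes had both values). The fits were tested on simulated counts. Copies were searched in hg38 by 31-base words of each transcript. All 10 members are named, and from each other list up to 3 called genes with the largest change and an average of at least 1 log2 CPM. Some genes that this rule names are not reported here. The members and lists were chosen with earlier results of these data known.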

Additional observations from a re-analysis of the deposited data

How the results depend on the processing

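The count of members called was recomputed under each alternative. In KO against WT it was 0 except without a filter on low counts (1, GPX1) and with only the libraries compared (1, CTH), and at 5% O2 it was 0 except under the same settings (1, GPX1, in each). With NAC it was 5, with 4 (no CTH) under DESeq2, without a filter and with the replicate block within genotype, 3 for only the libraries compared (GCLC, GPX1 and GPX4) and 0 to 6 when a library was left out. In NAC against 5% O2 it was 2, with 1 (GCLC) under DESeq2, RLE, upper quartile, no filter and the replicate block within genotype, 0 for only the libraries compared and 0 to 4 when a library was left out. In KO with NAC against WT it was 2, with 1 (GCLC) under RLE and upper quartile, 0 for only the libraries compared, 0 to 4 when a library was left out and 4 without the first NAC library after the length-GC correction. The causes were not tested, and some fits held fewer libraries. Libraries of the same replicate number had correlations of their deviations under 0.1 (from -0.02 to 0.08), and with the replicate block the counts were 0, 5, 0, 2 and 2 in that order, the same as without it.

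With NAC after the length-GC correction, with or without the replicate block, the log2 fold change turned for GCLM to -0.33, for CTH to -0.12 and for CBS to 0.16. At 5% O2 it turned for GCLC to -0.02 under these settings and for CTH to 0.01 under upper quartile scaling. In NAC against 5% O2 it turned for SLC7A11 to -0.21 and for GCLM to -0.19 after the length-GC correction, and SLC7A11 was at -0.00 under DESeq2, RLE and upper quartile scaling and at -0.01 for only the libraries compared. In KO with NAC against WT, GCLM turned to -0.15 after the length-GC correction, and to -0.16 with the replicate block besides. CTH with NAC, which the correction itself had turned, was at -0.14 without the first NAC library after the correction. The ranges with NAC below include that fit. Leaving out a library turned the direction of some log2 fold changes that had not passed the test. In KO against WT it ran for GCLC from -0.11 to 0.08, for GSR from -0.05 to 0.01 and for GPX4 from -0.21 to 0.06. With NAC it ran for SLC7A11 from -0.62 to 0.03, for GCLM from -0.13 to 0.31, for GSS from -0.07 to 0.15, for CBS from -0.39 to 0.40 and for CTH from -0.14 to 0.40. At 5% O2 it ran for GCLC from -0.03 to 0.06, for GCLM from -0.10 to 0.07 and for CTH from -0.11 to 0.10. In NAC against 5% O2 it ran for SLC7A11 from -0.33 to 0.31, for SLC3A2 from -0.03 to 0.28 and for GCLM from -0.11 to 0.32. In KO with NAC against WT it ran for SLC7A11 from -0.41 to 0.23, for SLC3A2 from -0.05 to 0.34, for GPX1 from -0.11 to 0.28 and for CTH from -0.40 to 0.03. As mean log2 CPM (prior count 2) in place of summed CPM, the mesenchymal markers stood at 4.99 in the first NAC library and at 1.12 to 1.86 in the others.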
